A study of Homo sapiens with 6 samples.

Results

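The response to DLEU1 knockdown that set Ca9-22 cells apart from HSC-3 and KON cells was described on gene expression microarrays. For each probe, the log2 fold change (siDLEU1-2 over siCtrl) in Ca9-22 was taken minus the mean of the same fold change in HSC-3 and KON, and this value is called the Ca9-22 difference below. Of 50599 probes on the array, 18094 exceeded background clearly on each of the 6 arrays and were used, and these carry 14015 gene names. By fold thresholds, 381 probes of 356 genes fell into one of 4 patterns particular to Ca9-22, which is 2.11% of the probes used. The whole array carries 36337 gene names.

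HSC-3, KON, and Ca9-22 are established lines of oral squamous cell carcinoma (OSCC). Cells of each line were transfected with a control siRNA (siCtrl) or with siDLEU1-2, an siRNA against the long noncoding RNA DLEU1, and RNA was taken after 72 h. The groups are thus HSC-3, KON, and Ca9-22 with siCtrl and the same 3 lines with siDLEU1-2, each with 1 array, and all cells received the same transfection reagent. One siRNA was used on the arrays, and each line has a single culture per siRNA here, so a change within a line has no error of its own and the patterns below are descriptions. All arrays lay on 1 slide, with Ca9-22 on one row of it and the other lines on the other, so that line and row cannot be told apart, while both siRNAs of a line shared a row. All 12 squamous epithelial markers were well above background on the siCtrl array of every line, and 8 of 18 markers of other cell types were so in Ca9-22 (9 in HSC-3 and 7 in KON). The leukocyte marker PTPRC and the fibroblast markers DCN, LUM, COL1A2, COL3A1, and PDGFRB did not clear background with siCtrl in any line. COL1A1, another fibroblast marker, did so on all arrays and was higher after siDLEU1-2 in each line (2.08, 1.32, and 0.96 in HSC-3, KON, and Ca9-22), and its part in the results was not tested.

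Interferons are secreted proteins that cells make when they sense foreign nucleic acid. They act on a receptor that signals through JAK kinases and STAT proteins, and a complex of STAT proteins with IRF9 binds a short promoter element, the interferon-stimulated response element, to switch on a large set of antiviral genes. Many tumor lines keep part of this set on without added interferon, at a level that differs between lines.

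The siRNA is shown because the 3 lines received the same molecule. The strands of siDLEU1-2 were as follows, with the seed of the antisense strand (bases 2 to 8 from its 5′ end) in capitals.
siDLEU1-2 sense: cagggguuaucgcacuuaagc
siDLEU1-2 antisense: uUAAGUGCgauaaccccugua
The complement of this seed, GCACTTA as DNA, occurred in the sequences of 48 of the probes used. Their median log2 fold change was -0.48 (HSC-3), -0.69 (KON), and -0.74 (Ca9-22), against 0.0018, 0.023, and -0.0019 over all probes used. Their median Ca9-22 difference was -0.04. These are 0.265% of the probes used. Of the probes in the 4 patterns, 0 of 157 that responded in Ca9-22 alone held it, as did 1 of the 4 opposite and higher, 1 of the 20 wider and lower, and 1 each of the 92 and 78 that lacked a response, counts too small to read.

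The target itself was lowered in all 3 lines. The level of DLEU1 (log2 signal minus the 75th percentile of the array) went from 1.39 to -2.71 in HSC-3, from 2.16 to -1.48 in KON, and from 1.56 to -1.88 in Ca9-22. The log2 fold change was -4.10, -3.63, and -3.44 in this order, so the knockdown in Ca9-22 was the smallest of the 3 by a narrow margin. Most of the genes that the study followed up and that are given here moved alike in Ca9-22 and in the other lines. The Ca9-22 difference was 0.15 for SMYD2, a lysine methyltransferase, -0.32 for CDH1, which encodes E-cadherin, and -0.22 for WEE1, the G2 checkpoint kinase. For CD44, the hyaluronan receptor, it was 0.36, or 0.024 without HSC-3 and 0.69 without KON. HAS3, a hyaluronan synthase, had 0.95 by its brighter probe, from log2 fold changes of -5.58, -3.52, and -3.60, but this rested on HSC-3 and was -0.079 without it. The dimmer HAS3 probe changed little in any line (-0.16, -0.43, and -0.31), with a Ca9-22 difference of -0.016.

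In Ca9-22, 946 probes (5.23%) were over 2-fold higher and 902 (4.99%) over 2-fold lower after siDLEU1-2. The 4 patterns were counted with these thresholds. A probe responded in Ca9-22 alone if it was over 2-fold changed there and under 1.5-fold in both other lines, with a Ca9-22 difference over 1 in size, and this held for 78 probes that were higher (0.431%) and 79 that were lower (0.437%). It lacked a response if it was over 2-fold changed the same way in HSC-3 and KON and under 1.5-fold in Ca9-22, and this held for 92 probes that were higher (0.508%) and 78 that were lower (0.431%) in the other lines. The opposite pattern, over 2-fold in Ca9-22 and over 1.5-fold the other way in both other lines, held for 4 higher (0.0221%) and 11 lower (0.0608%) probes. The response was wider in Ca9-22, over 2-fold there and over 1.5-fold the same way in both other lines with a Ca9-22 difference over 1 in that direction, for 19 higher (0.105%) and 20 lower (0.111%) probes.

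**Figure D1:**
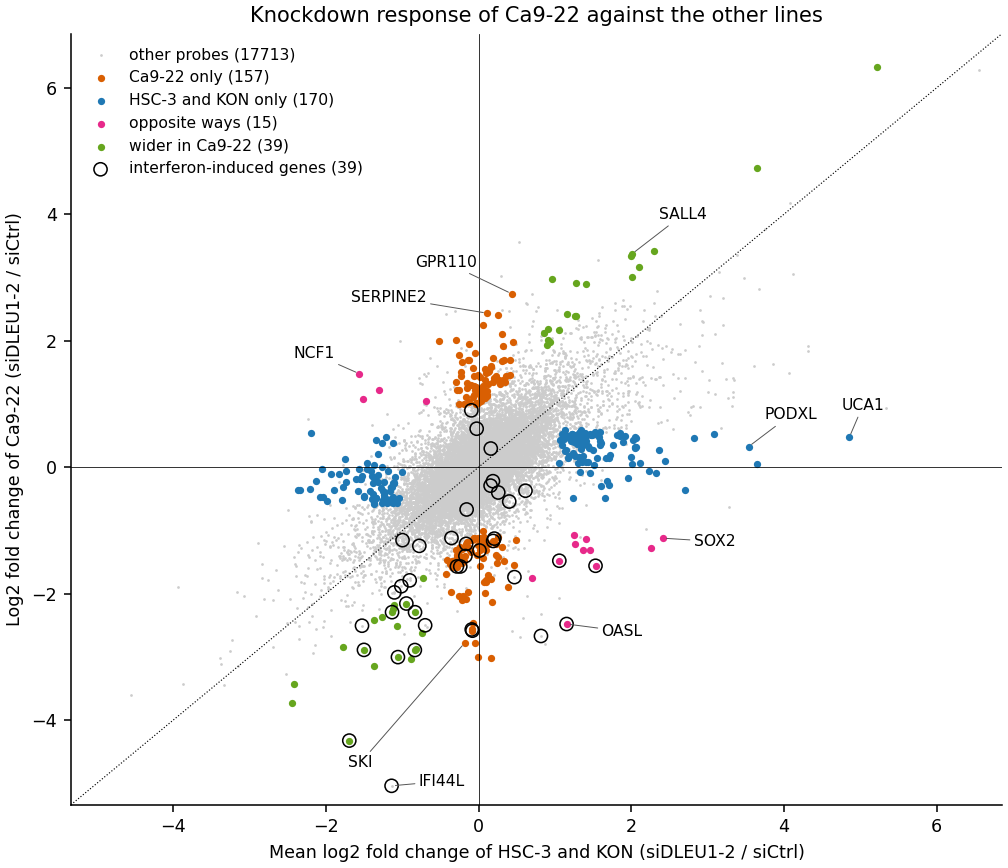
Log2 fold change after siDLEU1-2 in Ca9-22 (vertical axis) against the mean of HSC-3 and KON (horizontal axis) for the 18094 probes used, with the dotted line marking equal change. Colors mark the 4 patterns, with 157, 170, 15, and 39 probes, and rings mark the 39 measured interferon-induced genes, most of which lie below the dotted line.

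Ca9-22 did not stand apart more than the other lines. The same rules gave 462 probes for HSC-3 and 442 for KON, against 381 for Ca9-22, and the standard deviation of the difference over all probes was 0.53, 0.53, and 0.50. Values were continuous at the thresholds, where CYP4F8, at a log2 fold change of 1.001 in Ca9-22, was just inside and SLC35F5, at 0.99, was just outside the set that was higher in Ca9-22 alone. The difference was tested with limma, whose spread comes only from the disagreement between HSC-3 and KON (1 residual degree of freedom). It called 0 probes at an adjusted p below 0.05, while 763 (4.22%) had an unadjusted p below 0.05, and the smallest adjusted p was 0.665. The median standard error of the Ca9-22 difference in this fit was 0.38. Within an array, 581 probes were printed in 10 spots, and the error of the difference from these spots alone had a median of 0.036. This second error covers spot noise but no difference between cultures. With another background correction (normexp), 99 probes in place of 157 responded in Ca9-22 alone, whereas the median of the interferon-induced genes given next stayed between -1.27 and -1.15 under all alternatives.

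Of 48 gene lists, the interferon-induced genes had the lowest median Ca9-22 difference. Of 43 listed, 39 were measured, and their median log2 fold change was -0.34 (HSC-3), -0.28 (KON), and -1.57 (Ca9-22). Their median Ca9-22 difference was -1.23, against -0.01 over all probes used. It was below 0 for 36 of the 39 genes and above 0 for 3. The difference was under -1 for 23 genes (59.0%), where the background over all probes is 2.82%, and over 1 for 0 genes (background 2.35%). In Ca9-22, 30 of the 39 were over 2-fold lower and 0 over 2-fold higher. In HSC-3, 7 were over 2-fold lower (background 5.33%) and 4 over 2-fold higher (background 6.31%), and in KON, 7 were over 2-fold lower (background 6.09%) and 3 over 2-fold higher (background 6.1%).

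These genes started at different levels in the 3 lines. The median level of the list on the siCtrl arrays was 4.49 (HSC-3), 1.92 (KON), and 3.24 (Ca9-22), and after siDLEU1-2 it was 3.71, 1.27, and 1.23. With siCtrl, Ca9-22 was above KON for 31 of the 39 genes and above HSC-3 for 2. After siDLEU1-2, it was above KON for 22 and above HSC-3 for 1. Ca9-22 thus lay between the other lines before the knockdown and near KON after it. Because the siCtrl array of Ca9-22 enters both its level and its fold change, a high siCtrl level and a low fold change in that line are not independent.

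**Figure D2:**
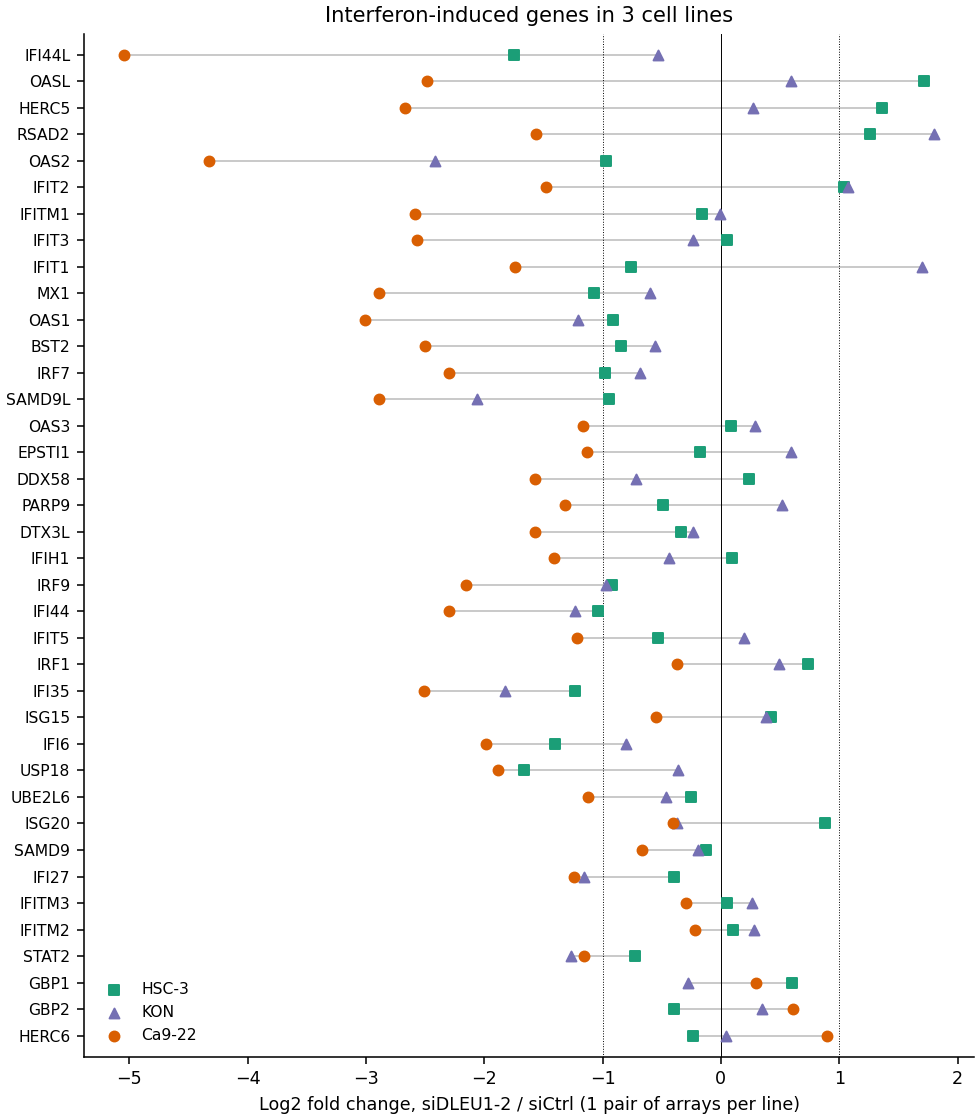
Log2 fold change after siDLEU1-2 of 38 of the 39 measured interferon-induced genes in HSC-3 (squares), KON (triangles), and Ca9-22 (circles), ordered by the Ca9-22 difference, with dotted lines at 2-fold. Ca9-22 is the lowest of the 3 lines for 34 of the 38 genes drawn (32.1% of all probes used), and HERC6, GBP2, and GBP1 at the bottom have a Ca9-22 difference above 0.

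Of the 4 patterns, one or another held for 17 of the 39 genes, where 2.11% of all probes used met one. Of the 17, 7 were lower in Ca9-22 alone (background 0.437%) and 3 were lower in Ca9-22 and higher in the others (background 0.0608%). The other 7 were lower in every line but widest in Ca9-22 (background 0.111%). IFITM1, a membrane protein that blocks virus entry, was of the first kind. Its level went from 9.16 to 9.01 in HSC-3, stayed at 4.47 in KON, and went from 3.85 to 1.26 in Ca9-22. The other lines were thus nearly level, while Ca9-22 was 2.59 lower on the log2 scale, and the second IFITM1 probe gave -2.46. The Ca9-22 difference of IFITM1 was -2.51 ± 0.37 (SE from limma, adjusted p = 0.665). Its probe lies at chr11:315209-315268 of hg19.

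IFIT3, which binds partner proteins of the antiviral IFIT complex, behaved alike. Its level went from 5.75 to 5.80 in HSC-3, from 2.29 to 2.06 in KON, and from 4.49 to 1.92 in Ca9-22. DDX60L, an antiviral helicase relative that is not on the list, went from 3.38 to 3.74, from -0.21 to 0.35, and from 1.19 to -0.36 in the same order. OAS3, an oligoadenylate synthetase that activates RNase L, had log2 fold changes of 0.09, 0.29, and -1.17, and its second probe gave -1.18 in Ca9-22. IFIH1, which encodes the RNA sensor MDA5, had 0.09, -0.44, and -1.41. DTX3L and PARP9, partners in one ubiquitin ligase complex, had Ca9-22 differences of -1.29 and -1.33, and IFIT5 had -1.05. Without KON, those of PARP9 and IFIT5 were -0.83 and -0.69.

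OASL, RSAD2, and IFIT2 moved in opposite directions. OASL, a relative of the oligoadenylate synthetases that enhances RNA sensing, went from 5.40 to 7.11 in HSC-3, from 2.34 to 2.93 in KON, and from 6.51 to 4.03 in Ca9-22. RSAD2, which encodes viperin, went from 0.30 to 1.57, from -1.88 to -0.08, and from -0.22 to -1.78. IFIT2 went from 5.94 to 6.99, from 2.12 to 3.19, and from 4.64 to 3.16, and its second probe ran the same ways in all lines. Each of these genes was higher after siDLEU1-2 in both HSC-3 and KON and lower in Ca9-22. The Ca9-22 difference was -3.63 for OASL, -3.09 for RSAD2 (-1.99 with normexp), and -2.54 for IFIT2. HERC5, the ligase that attaches ISG15, missed the pattern because it was only 0.27 higher in KON, with 1.36 in HSC-3 and -2.67 in Ca9-22.

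A further group was lower in all lines and lowest in Ca9-22. OAS2 went from 4.69 to 3.71 in HSC-3, from 2.06 to -0.36 in KON, and from 1.97 to -2.35 in Ca9-22, and its difference of -2.63 was -1.57 with normexp. MX1, an antiviral GTPase, had log2 fold changes of -1.07, -0.60, and -2.89, and OAS1 had -0.91, -1.21, and -3.01. IRF7 and IRF9, transcription factors of the pathway, had -2.30 and -2.16 in Ca9-22 and between -0.98 and -0.68 in the other lines. BST2, which encodes the virion tether tetherin, had a Ca9-22 difference of -1.80 by its brighter probe and -1.87 by the other. RTP4, outside the list but known as interferon-inducible, had -1.11, -0.66, and -3.04. IFI44L had the widest Ca9-22 difference of the list, -3.90, from log2 fold changes of -1.75, -0.53, and -5.04.

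Members that did not follow were few, and they are given here after their values had been seen. HERC6 had a Ca9-22 difference of 0.99, GBP2 of 0.63 (0.26 without HSC-3 and 1.01 without KON), and GBP1 of 0.14 (-0.30 without KON). GBP1 and GBP2 are GTPases best known as targets of interferon gamma. STAT2 (-0.16), IFITM2 (-0.41), and IFITM3 (-0.45) were near the other lines. IFITM1, IFITM2, and IFITM3 are closely related in sequence, and whether their probes cross-hybridize was not tested.

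The rest of the interferon pathway was looked up by role, in lists put together after these values had been seen. No interferon ligand of 7 was measured on all 6 arrays. The 6 receptor chains had Ca9-22 differences between -0.60 (IFNGR1) and 0.27 (IFNGR2), and IFNAR1 was lower in every line (-0.79, -1.74, and -1.02). Of 6 signal transducers, IRF9 was under -1, JAK1 was at -0.37, and TYK2 was highest at 0.36. The 10 sensors and adaptors had a median of -0.60, and DDX58, which encodes RIG-I, and IFIH1 were under -1. TLR3 was the highest of them at 0.97, having dropped less in Ca9-22 (-1.78) than in HSC-3 (-2.73) and KON (-2.78). Of 3 inhibitors, USP18 was at -0.87, SOCS3 at 0.35, and SOCS1 at 0.56. Several of these moved with the line left out, since USP18 was -1.52 without HSC-3 and -0.22 without KON, SOCS1 was 0.12 and IFNGR1 -0.19 without HSC-3, and TYK2 was -0.0061 without KON. DDX58 was -0.85 without HSC-3. The genes under -1 among transducers and sensors are themselves on the interferon-induced list.

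After these values had been seen, the interferon-stimulated response element was searched in the promoters of the genes. The motif was chosen because interferon-induced genes had been seen among those lower in Ca9-22. Its counts thus restate that result in part and are no separate support. Promoters (250 bases before to 50 after the gene start, RefSeq, GRCh38.p14) were scanned on both strands for GAAANNGAAA. The motif stood in 2.85% of 9213 promoters of the genes used and in 3.65% of all 27305 in the table. Among the genes that were lower in Ca9-22 alone, opposite, or wider there, 16 of 64 promoters held it (25.0%), against 1 of 62 (1.61%) among those that were higher. It stood in 20 of 31 promoters of the measured interferon-induced genes (64.5%). A match is a description of letters and does not show a bound site. One window is printed for each of 8 genes that are lower in Ca9-22 by these patterns, with the motif in capitals and the sequence on the strand of the gene, and some of these promoters hold more than 1 match. The motif was read on both strands, so that GAAANNGAAA on the other strand reads TTTCNNTTTC.
IFITM1 chr11:314024-314053 (+): acacttctgaGAAACTGAAAcgacagggga
IFIT3 chr10:89327865-89327894 (+): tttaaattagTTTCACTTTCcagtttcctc
DDX60L chr4:168480523-168480552 (-): gtggagaaaaGAAACCGAAActaactccct
PARP14 chr3:122680800-122680829 (+): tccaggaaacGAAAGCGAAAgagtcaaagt
IFI44 chr1:78649761-78649790 (+): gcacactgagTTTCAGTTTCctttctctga
BST2 chr19:17405741-17405770 (-): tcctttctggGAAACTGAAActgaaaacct
MX1 chr21:41420559-41420588 (+): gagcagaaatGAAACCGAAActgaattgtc
RTP4 chr3:187368357-187368386 (+): accgaacaccGAAACTGAAActgtttgtct

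Several further genes that were lower in Ca9-22 alone are known as interferon-inducible without being on the list, and they were picked out after their values had been seen. The Ca9-22 difference was -1.83 for APOL6, -1.68 for PARP14, -1.41 for SP110, -1.35 for ZC3HAV1, -1.30 for SP100, -1.08 for NMI, and -1.03 for PARP12. A change over 2-fold in Ca9-22 and a difference over 1 in size are part of how this pattern is defined. These values are thus no separate support. As another choice made after the values had been seen, the word interferon in the array's own gene descriptions was taken in place of a list. It gave 47 probes, of which 16 had a Ca9-22 difference under -1 (34.0%, background 2.82%) and 0 over 1 (background 2.35%). The median over these probes was -0.47.

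MHC class I antigen presentation, the display of cytosolic peptides to T cells, had the next lowest list median, with a Ca9-22 difference of -0.68 over 17 of 17 genes. The median log2 fold change was 0.13 for HSC-3, -0.24 for KON, and -0.37 for Ca9-22, and HSC-3, taken against KON and Ca9-22 in the same way, had a median difference of 0.64, so that it stood apart by nearly as much. Of the 17 genes, 3 were under -1 (17.6%, background 2.82%). PSMB9, an immunoproteasome subunit, went from 5.99 to 6.46 in HSC-3, from 5.49 to 5.06 in KON, and from 4.76 to 3.20 in Ca9-22. PSMB8, another such subunit, had a Ca9-22 difference of -1.13, and TAP1, a subunit of the peptide transporter, had -1.35, or -0.85 without HSC-3, where it was 1.10 higher. Differences were smaller for presenting molecules, with -0.30 for HLA-F, -0.24 for HLA-B, -0.19 for HLA-C, and -0.16 for their partner B2M. NLRC5, a transactivator of class I genes, was at 0.28, the mean of 1.46 without HSC-3 and -0.90 without KON, and this reading of the list by role was made after the values had been seen.

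**Figure D3:**
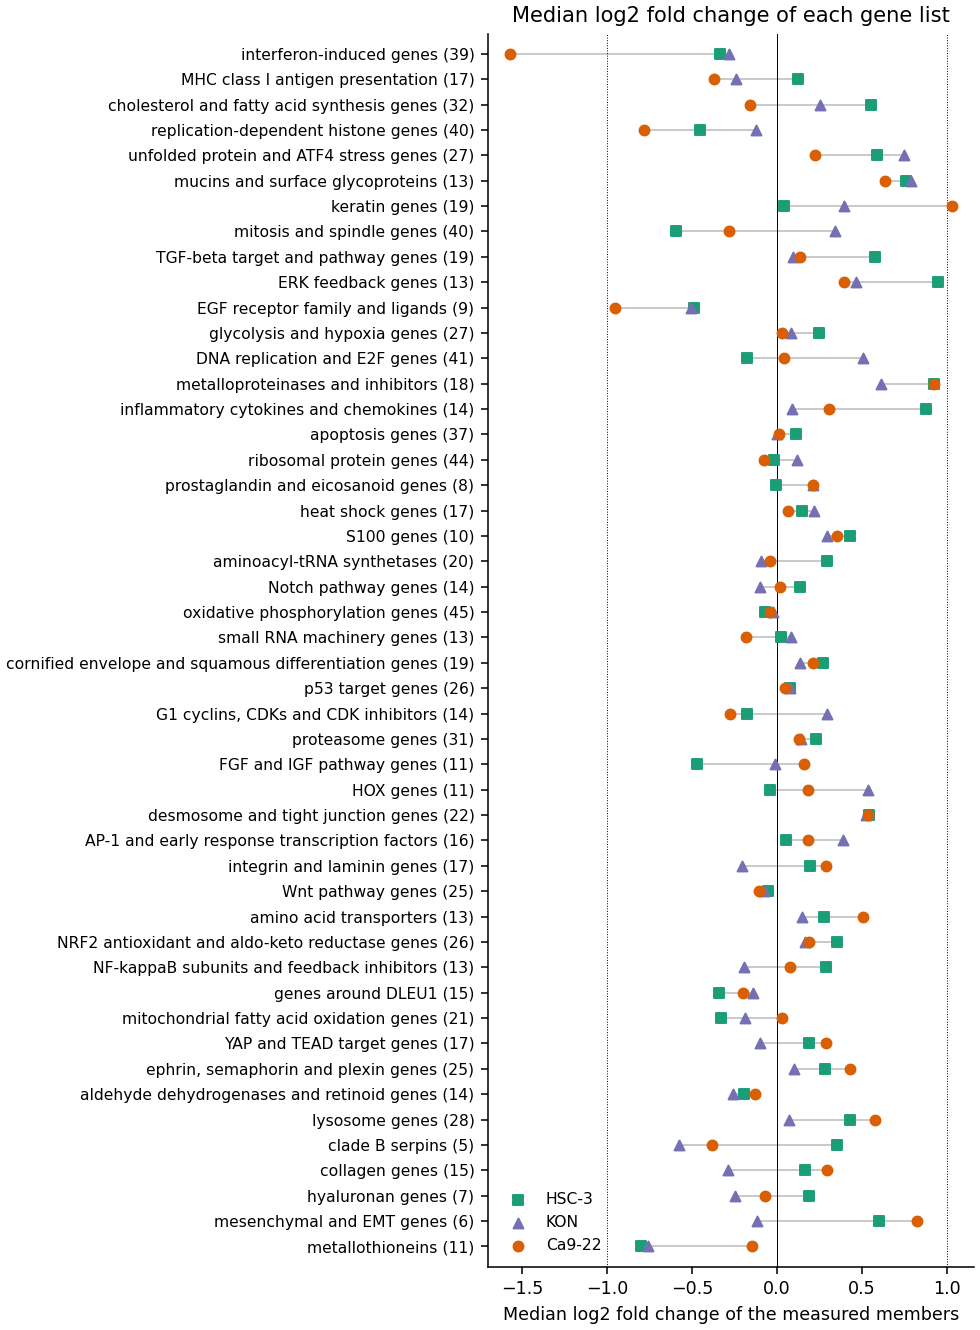
Median log2 fold change of the measured members of 48 gene lists in HSC-3 (squares), KON (triangles), and Ca9-22 (circles), with the number of measured genes in parentheses and dotted lines at 2-fold. Lists are ordered by the median over genes of the Ca9-22 difference, from -1.23 for the interferon-induced genes to 0.62 for the metallothioneins.

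For 6 of the 48 lists the median Ca9-22 difference was beyond 0.5 in size, 5 of them below 0. Cholesterol and fatty acid synthesis genes, targets of the SREBP transcription factors, had a median of -0.63 over 32 of 33 genes, with 28 below 0 (background 51.7%) and 4 under -1 (12.5%, background 2.82%). Their median log2 fold change was 0.56 (HSC-3), 0.25 (KON), and -0.16 (Ca9-22). ACSS2, an acetyl-CoA synthetase, went from 3.34 to 4.52 in HSC-3, from 1.61 to 1.71 in KON, and from 2.53 to 1.81 in Ca9-22, a difference of -1.36 that was -0.82 without HSC-3. INSIG1, which holds SREBP in the endoplasmic reticulum, was 1.80 higher in HSC-3, 2.14 for KON, and 0.84 for Ca9-22. STARD4, a sterol carrier, had log2 fold changes of 0.28, 0.74, and -0.80. None of the 32 met one of the 4 patterns, where 2.11% of all probes used did, so this count is too small to read.

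The unfolded protein and ATF4 stress genes had a median Ca9-22 difference of -0.54 over 27 of 30 genes, all 27 below 0, where the background over all probes is 51.7%, and 4 under -1 (14.8%, background 2.82%). DDIT3, which encodes the stress factor CHOP, went from 1.13 to 2.37 in HSC-3, from 1.46 to 2.70 in KON, and from 2.45 to 1.96 in Ca9-22. ATF3, another stress-induced factor, had log2 fold changes of 1.71, 1.45, and 0.48. Both genes lacked in Ca9-22 the response of the other lines. CHAC1, a glutathione-degrading enzyme induced by ATF4, had 3.11, 0.75, and 0.37, so that its difference of -1.56 was -0.38 without HSC-3. DDIT4, an inhibitor of mTORC1, had -0.01, 1.87, and -0.81, and its difference of -1.74 was -0.81 without KON. Replication-dependent histone genes had a median of -0.62 over 40 of 41 genes, all 40 below 0 (background 51.7%) and 0 under -1. Their probes measure closely related transcripts, and the list median was -0.12 in KON against -0.46 in HSC-3 and -0.78 in Ca9-22. Without KON the median difference was -0.38, and KON, taken against HSC-3 and Ca9-22 in the same way, had a median of 0.71 on this list.

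The metallothioneins, small metal-binding proteins, had the highest median, a Ca9-22 difference of 0.62 over 11 of 12 genes on a list that also holds the zinc exporter SLC30A1. Their median log2 fold change was -0.80 (HSC-3), -0.76 (KON), and -0.15 (Ca9-22). MT1X by its brighter probe went from 7.49 to 6.42, from 6.88 to 6.05, and from 6.21 to 6.06. The other lines were thus lower after siDLEU1-2, and Ca9-22 was nearly level. The members of this family are close to identical in sequence, so the probes may share transcripts and do not count as separate evidence. Collagen genes had a median of 0.33 over 15 genes, 11 above 0 (0.14 with a looser filter on dim probes), and lysosome genes 0.19 over 28, 22 above 0. Over all probes used, 51.7% were below 0. Taken against the other lines in the same way, collagen genes had medians of 0.42 (HSC-3) and -0.44 (KON), and lysosome genes 0.18 and -0.39. KON thus stood further apart than Ca9-22 on both lists. Within the collagen list, COL6A1 went the other way, with 3.63, 2.72, and 0.61. Of the mesenchymal list only 6 genes were measured, and they differed. TAGLN, an actin-binding protein, had 1.52, -0.02, and 2.47, and its difference of 1.73 was 0.96 without KON, while ACTA2 had a difference of -0.83 and S100A4 one of -0.85 that was -0.0076 without HSC-3.

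**Figure D4:**
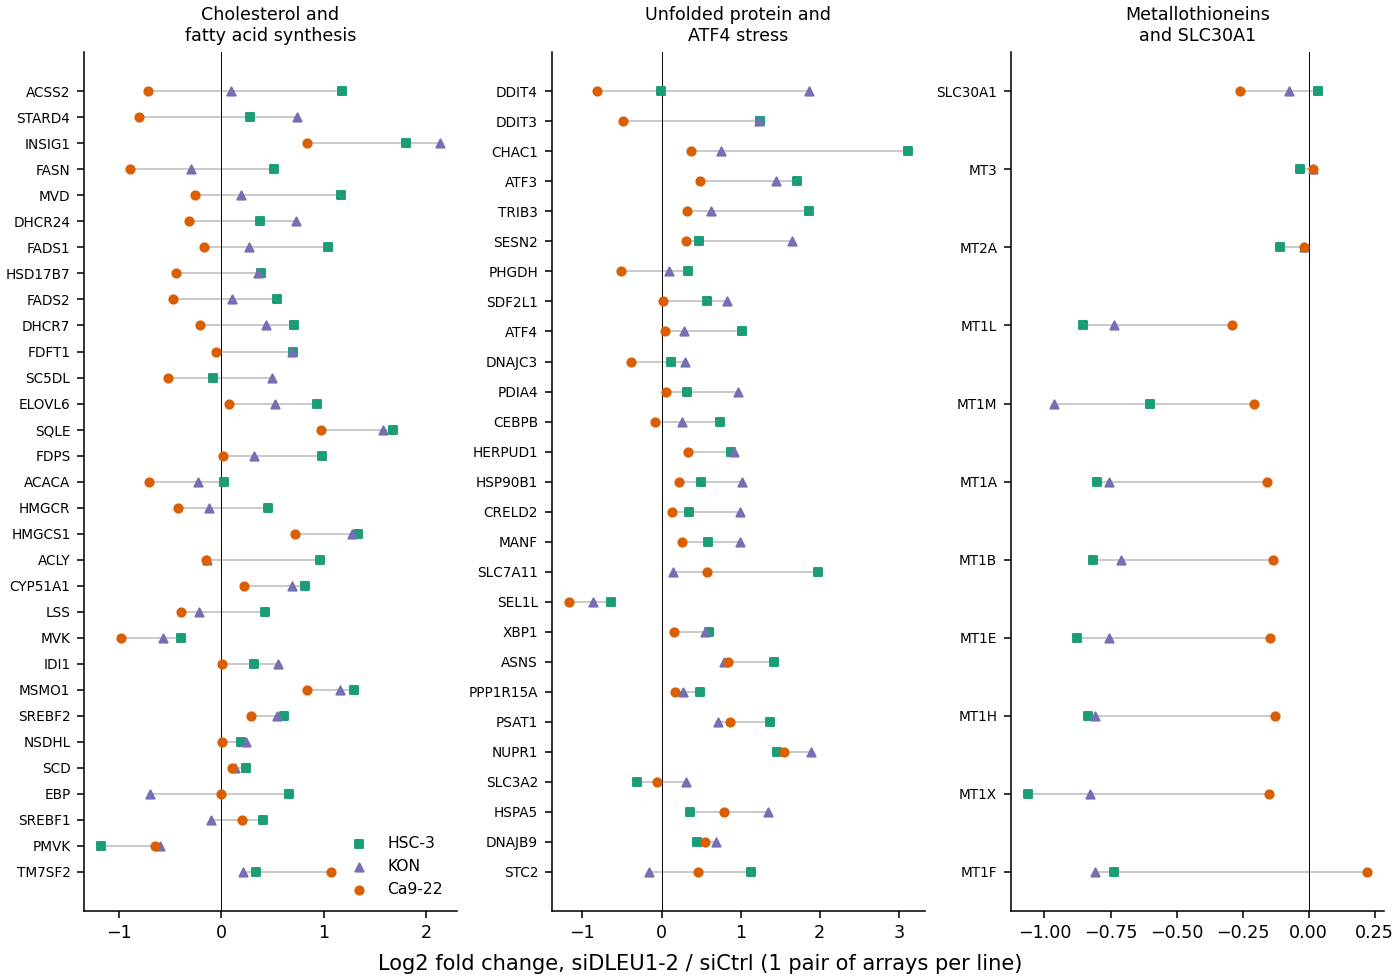
Log2 fold change after siDLEU1-2 of measured genes in 3 lists, with 1 cholesterol gene not drawn, with HSC-3 as squares, KON as triangles, and Ca9-22 as circles, ordered by the Ca9-22 difference and each panel on its own scale. Ca9-22 is the lowest line for 27 of the 31 cholesterol and fatty acid synthesis genes and 19 of 27 stress genes, and the highest for 10 of 11 genes on the metallothionein list, where over all probes it is lowest in 32.1% and highest in 29.4%.

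Among single genes that were lower in Ca9-22 alone, SKI, a repressor of TGF-beta signaling, was one of the furthest. Its level went from -0.43 to -0.71 in HSC-3, from -0.20 to -0.29 in KON, and from 2.42 to -0.36 in Ca9-22. Ca9-22 was thus well above the other lines with siCtrl and level with them after siDLEU1-2. C10orf58, a peroxiredoxin-like protein, went from 4.21 to 3.94, from 3.11 to 3.29, and from 2.57 to -0.22, and a dimmer probe, not well above background on every array, gave -3.16 in Ca9-22. AK4, a mitochondrial adenylate kinase, had log2 fold changes of 0.55, 0.21, and -1.89, and its other probes gave -1.60 and -2.04 in Ca9-22. NRG1, a ligand of ERBB receptors, had 0.52, -0.27, and -1.70, and of its other probes one gave -1.78 and one -1.20. NFIB, a nuclear factor of stem and tumor cells, had -0.24, 0.44, and -1.82, and its difference of -1.92 was -1.09 with normexp.

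For some genes in this group the probes disagreed. MLLT4, which encodes the junction protein afadin, was 3.02 lower in Ca9-22 by one probe, while 2 brighter probes gave -0.16 and -0.48, and with normexp the first probe's difference of -3.18 was -1.75. MXRA7 was 1.78 lower by one probe, and its brightest gave 0.45. TBC1D1 was 2.08 lower by a dim probe, and its brightest gave -0.03. CNTNAP3 was 2.11 lower by one probe, and its brightest gave -1.17. Over all 4 patterns, 103 genes had another probe among those used, and in 84 of them every other probe had a Ca9-22 difference of the same sign, while 41 had another probe over 1 in size.

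Among genes that were higher in Ca9-22 alone, DBN1, which encodes the actin-binding protein drebrin, went from 4.87 to 4.93, from 4.97 to 4.66, and from 1.12 to 2.82 in HSC-3, KON, and Ca9-22, respectively. Ca9-22 was thus the lowest of the 3 lines on both arrays, by less after siDLEU1-2. SERPINE2, a secreted inhibitor of serine proteases, went from 0.91 to 1.48, from 3.72 to 3.38, and from -2.66 to -0.23, and its Ca9-22 difference of 2.32 was 1.31 with normexp. GPR110, an adhesion receptor, had log2 fold changes of 0.58, 0.29, and 2.74, and SPINK5, an inhibitor of epidermal kallikreins, had -0.58, 0.13, and 1.66. KRT42P, a keratin pseudogene, had -0.30, -0.17, and 1.44, and cross-hybridization with other keratins was not tested. The zinc finger genes ZNF552 and ZNF34 had Ca9-22 differences of 2.16 and 2.08, which were 1.34 and 1.27 with normexp. SPINK5 went from 1.88 to 0.88 in the same way, and another SPINK5 probe, well above background on 4 arrays, gave -1.27 in Ca9-22.

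In this direction, too, probes of a gene often disagreed. RABGAP1L was 1.99 higher in Ca9-22 by one probe, with a Ca9-22 difference of 2.51, while its brighter probe had -0.84. RBM12, an RNA-binding protein, was 2.01 higher by its brighter probe and 0.47 by the other. FBXO18 and RNF216 were 1.78 and 1.81 higher by 1 probe each, while their brightest probes gave -0.46 and -0.11. Of the 26 such genes with another probe, 19 had every other probe on the same side and 6 had another over 1, and for genes that were lower in Ca9-22 alone these counts were 18 and 9 of 23. MMP14, a membrane-bound metalloproteinase, had 0.45, -0.38, and 1.08, and its Ca9-22 difference of 1.05 was 0.63 without KON. The list of metalloproteinases and inhibitors did not share this, with a median difference of -0.17 over 18 genes, 4 under -1 (22.2%, background 2.82%) and 2 over 1 (11.1%, background 2.35%). PLAU, which encodes urokinase and was picked out after its values had been seen, had 0.07, 0.00, and 1.11. NDRG1, a stress- and hypoxia-responsive gene, had 0.20, 0.02, and 1.20. DES and PMEL, listed as muscle and melanocyte markers, were both higher in Ca9-22 alone, at 1.37 and 1.27.

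**Figure D5:**
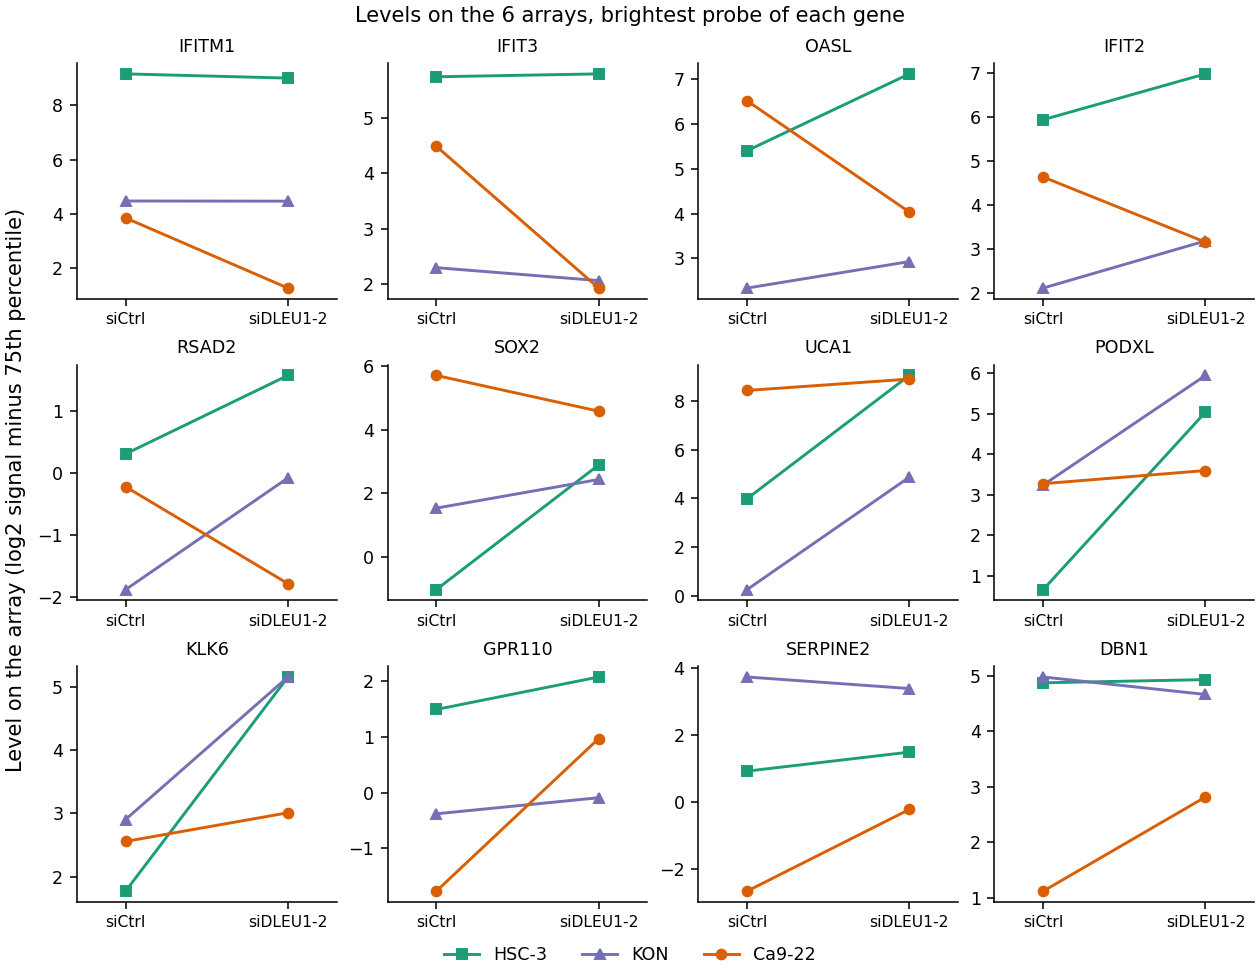
Level on each of the 6 arrays (log2 signal minus the 75th percentile of the array) with siCtrl and siDLEU1-2 for 12 genes, by the brightest probe of each, with 1 array per point and each panel on its own scale. From siCtrl to siDLEU1-2, IFITM1 and IFIT3 go over 2-fold down in Ca9-22 alone, OASL, IFIT2, RSAD2, and SOX2 go down in Ca9-22 and up in the other lines, UCA1, PODXL, and KLK6 go over 2-fold up in the other lines alone, and GPR110, SERPINE2, and DBN1 go over 2-fold up in Ca9-22 alone.

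The widest response that Ca9-22 lacked was that of UCA1, a long noncoding RNA named for urothelial cancer. Its level went from 3.99 to 9.06 in HSC-3, from 0.24 to 4.88 in KON, and from 8.45 to 8.91 in Ca9-22. With siCtrl, Ca9-22 was thus already near the level that HSC-3 reached after the knockdown. The log2 fold change was 5.08, 4.63, and 0.47, and the Ca9-22 difference was -4.39 ± 0.40 (SE from limma, adjusted p = 0.665). The probe lies at chr19:15946035-15946092 of hg19. PODXL, which encodes the sialomucin podocalyxin, went from 0.66 to 5.03, from 3.24 to 5.94, and from 3.27 to 3.60. For PODXL the siCtrl levels of Ca9-22 and KON were close, and KON was 2.70 higher after siDLEU1-2.

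KLK6, a kallikrein protease, went from 1.77 to 5.16 in HSC-3, from 2.90 to 5.16 in KON, and from 2.56 to 3.01 in Ca9-22, and its dimmer probe gave 3.78, 2.40, and 0.52. MB, which encodes myoglobin, had log2 fold changes of 4.10, 3.21, and 0.05, and PTPRH, a receptor-type phosphatase, had 1.80, 2.85, and -0.09. IL15RA, the receptor chain that presents interleukin 15, was found after its values had been seen, with 3 probes that lacked the response in Ca9-22 (-0.17, 0.31, and 0.45 there). BMP2, a TGF-beta family ligand, had 1.41, 1.62, and 0.03, and PMAIP1, which encodes the apoptosis inducer NOXA, had 1.42, 1.28, and 0.08. OCLN, the tight junction protein occludin, depended on the probe, since one lacked the response in Ca9-22 (-0.37) while the brighter was 2.26 higher there, with 2.43 in HSC-3 and 2.85 in KON.

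Responses toward lower levels that Ca9-22 lacked included those of receptors and transcription factors. BCL11B, a zinc finger transcription factor, went from 2.35 to -0.60 in HSC-3, from 0.24 to -0.92 in KON, and from -2.13 to -2.16 in Ca9-22, a difference of 2.03 that was 1.13 without HSC-3. ZBED2 had log2 fold changes of -2.67, -2.02, and -0.36. Both genes were lowest in Ca9-22 with siCtrl. FGFR2, a fibroblast growth factor receptor, went from 2.03 to 0.07, from 1.53 to 0.38, and from 2.70 to 2.51, so that here Ca9-22 started highest. EFNB1, an ephrin ligand, had log2 fold changes of -1.62, -1.44, and -0.14, and SNAI2, which encodes the transcription factor Slug, had -1.48, -1.36, and -0.37. RNF213 and MPDU1 met the pattern by 1 probe each, and their brightest probes had Ca9-22 differences of 0.49 and 0.05.

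SOX2, a transcription factor of stem and squamous cells, moved in opposite directions. Its level went from -1.03 to 2.90 in HSC-3, from 1.54 to 2.44 in KON, and from 5.71 to 4.59 in Ca9-22. Ca9-22 was thus the highest line on both arrays, and the 3 lines lay closer together after siDLEU1-2. The Ca9-22 difference was -3.54 ± 1.17 (SE from limma, adjusted p = 1), a wide error because HSC-3 and KON differed, and it was -2.02 without HSC-3. The probe lies at chr3:181431877-181431936 of hg19. HCAR3, a receptor for hydroxycarboxylic acids, went from 4.72 to 5.39, from 2.59 to 4.67, and from 4.28 to 2.97, and HCAR2 ran the same ways, although these genes are nearly identical and cross-hybridization was not tested.

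Higher in Ca9-22 and lower in the other lines were NCF1, KRT16P2, and PPME1. NCF1, a subunit of the phagocyte NADPH oxidase with near-identical pseudogenes, went from 1.69 to -0.05 in HSC-3, from 0.15 to -1.23 in KON, and from -2.24 to -0.76 in Ca9-22. KRT16P2, a pseudogene of keratin 16, had log2 fold changes of -2.02, -0.59, and 1.21. PPME1, which removes a methyl group from protein phosphatase 2A, had -0.72, -0.65, and 1.04, and its second probe gave -0.72, -0.71, and 0.99.

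Responses that all lines shared but that were widest in Ca9-22 included MITF, a transcription factor. By its dimmer probe it was 1.48 higher in HSC-3, 1.06 for KON, and 2.91 for Ca9-22, and by the brighter probe 2.39 higher in Ca9-22. GSN, which encodes the actin-severing protein gelsolin, went from 4.49 to 5.28, from 2.83 to 3.85, and from 2.46 to 4.47, and its second probe had a Ca9-22 difference of 1.26. SALL4, a stem cell transcription factor, had 2.74, 1.28, and 3.37, and its difference of 1.36 was 0.84 with normexp and 0.64 without KON. VASN, which traps TGF-beta, had 1.82, 2.16, and 3.35, but its Ca9-22 difference of 1.36 was 0.31 with normexp. CASP1, the caspase of inflammasomes, was lower in all lines, with -0.83, -1.32, and -2.52.

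The level of Ca9-22 against the mean of the other lines differed by pattern. Genes that were lower in Ca9-22 alone had a median siCtrl level 0.48 above the mean of the other lines, and after siDLEU1-2 the median was -0.89. Genes that were higher in Ca9-22 alone went from -0.70 to 0.64. The 19 probes that were wider and higher went from -1.26 to -0.09, close to the value over all probes, and the 4 that were opposite and higher from -3.60 to -0.83. Over all probes used, the median was -0.10 and -0.11. Each array enters both the pattern and these levels, so the direction of these shifts follows from how the genes were chosen and is given as a description.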

How the data were processed

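Total RNA (Cy3, 1 color) from 3 OSCC lines with siCtrl or siDLEU1-2 was measured on 6 Agilent arrays. The authors deposited the scanner output, processed with Feature Extraction 10.7 according to the submitters' notes (10.7.3.1 in the file headers), and probes are placed on hg19. The deposited values used were the background-corrected intensity of each spot. The series table deposited by the authors differed from them by at most 0.4999%.

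Spots of a probe were averaged, each array's 75th percentile was subtracted from its log2 intensities, and probes had to be well above background on all 6 arrays. No spot was saturated, and 43.0% to 45.7% of probes were well above background per array. Gene names are those of the array design, 82.9% of which, among names used, matched RefSeq. For gene lists the brightest probe of a gene was taken. The members and lists were chosen with earlier results of these data known. Genes were named by rule as the 12 widest in each direction that responded in Ca9-22 alone, the 5 widest opposite or wider, the 6 widest lacking a response, and list members in a pattern or among up to 4 by size. Other genes named, such as further list or pathway members and the genes at the thresholds, were chosen after their values were seen. The difference was tested with limma 3.58.1 in R 4.3.3 (line, siRNA, and their interaction for Ca9-22, Benjamini-Hochberg over all probes used), checked on simulated data. Other steps used Python 3.11.15 with pandas 2.3.3. The number of arrays limits the precision. Alternatives covered centering, normalization, background correction, filters, fold thresholds, and leaving out HSC-3 or KON. A few genes are not reported here by name or drawn, and they remain in the counts and medians of their lists.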

Additional observations from a re-analysis of the deposited data

Results flagged for a closer look

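Of the 14 genes in the opposite pattern, 9 were named by rule. In these, Ca9-22 moved one way after siDLEU1-2 and both HSC-3 and KON the other way. With 1 array per line and siRNA, the difference was not tested for these genes alone, and limma called none of them at an adjusted p below 0.05. The Ca9-22 difference (log2 scale) was -3.63 for OASL, -3.54 for SOX2, -3.09 for RSAD2, -2.69 for HCAR3, -2.54 for HCAR2, and -2.54 for IFIT2, all lower in Ca9-22. It was 3.04 for NCF1, 2.52 for KRT16P2, and 1.73 for PPME1, all higher in Ca9-22. HCAR2 and HCAR3, NCF1, and KRT16P2 have near-identical copies in the genome, and cross-hybridization was not tested. With normexp, HCAR3, SOX2, and the brighter IFIT2 probe kept the pattern. The other 6 genes missed its thresholds while keeping their directions, with differences of -3.55 for OASL, -1.99 for RSAD2, -1.68 for HCAR2, 2.03 for NCF1, 2.42 for KRT16P2, and 1.43 for PPME1.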

How the results depend on the processing

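No pairing beyond the line was possible, because the labels carry no replicate numbers and each line and siRNA has 1 array. The limma fit holds the line as a term, so that siRNAs were compared within a line. Slide was not fitted as a block, since all arrays lay on 1 slide. Counts are given in the order responding in Ca9-22 alone, lacking, opposite, and wider, from 157, 170, 15, and 39. Normexp gave 99, 101, 3, and 22. It moved the share that was higher among the lacking from 54.1% to 65.3%, among the wider from 48.7% to 36.4%, and among the opposite from 4 higher and 11 lower to 0 and 3, and 78 of the 157 kept their pattern and direction. Probes well above background on 1 of 2 arrays per line gave 245, 227, 40, and 88, with 19 higher and 21 lower among the opposite. Brighter probes gave 93, 109, 10, and 25. A 3-fold threshold in Ca9-22 gave 43 responding and 2 opposite, and a lower limit on change in the other lines, stricter for the first 2 patterns and looser for the others, gave 59, 71, 27, and 59. Without HSC-3 the counts were 320, 737, 64, and 65, and without KON 287, 698, 55, and 66, where one line fewer had to meet the thresholds. Quantile normalization, both other centerings, and the series table kept all 4 counts within 1.5 times. limma, run for centering, normalization, background, series table, and both probe filters, called 0 probes (547 to 921 at an unadjusted p below 0.05), and with an intensity trend it called 1. Of 100 list medians, 96 moved by less than their spread. Hyaluronan genes went to 0.049 without HSC-3, and clade B serpins turned to -0.039 with the looser filter, -0.29 with brighter probes, and -0.12 without KON. The mesenchymal list fell to 0.054 with either filter on dim probes. Among genes named by rule, 7 changed sign with a line left out, GRHL3 from 1.13 to -0.50 and HAS3 to -0.079 without HSC-3, COL12A1 to -1.58 and SERPINB3 to -0.12 without KON, and SERPINB1, SERPINB6, and GALNT3 from values under 0.5 in size. The cause was not tested. Signal over background limits dim probes most.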
